A study of Mus musculus with 8 samples.

Results

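The protein uptake system and brush-border enzymes of the kidney proximal tubule were examined through 9 genes: Lrp2, Cubn, Amn, Dab2, Ggt1, Anpep, Dpp4, Mme and Ass1. They were taken by gene symbol from an RNA-seq table of 14145 genes, in which 8 of the 9 symbols were found. Cubn was not analysed here. The measurements come from primary tubular epithelial cells of mouse kidney, grown without treatment in DMEM/F12 medium with fetal bovine serum. In all, 4 libraries came from control mice (Aldh2Ctrl, labelled WT) and 4 from mice with Aldh2 knocked out in the tubular epithelium (Aldh2TEC-KO, labelled KO). The genotype field of the 4 KO libraries reads ALDH2, ALDH3, ALDH4 and ALDH5 knockout in turn, which differs from the titles and design, and Aldh2 itself was low in all 4. Aldh2 encodes the mitochondrial aldehyde dehydrogenase that oxidises acetaldehyde and reactive lipid aldehydes, and the series title ties its inhibition to the metabolism of tubular cells and to renal injury. The Cre driver, strain, age and sex of the mice are not stated in the sources used. Since they also leave unsaid whether each library had its own animal, p-values here measure spread between libraries, which may be technical.

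The proximal tubule reabsorbs filtered protein through the giant receptor megalin, encoded by Lrp2, which works with cubilin, encoded by Cubn, and with the membrane anchor amnionless, encoded by Amn. The adaptor disabled-2, encoded by Dab2, links the cytoplasmic tail of megalin to the clathrin machinery. The brush border also carries ectopeptidases that cut filtered peptides to amino acids: γ-glutamyltransferase 1 (Ggt1), aminopeptidase N (Anpep), dipeptidyl peptidase 4 (Dpp4) and neprilysin (Mme). Ass1, argininosuccinate synthase, is the cytosolic enzyme by which proximal tubule cells turn citrulline into arginine for the body. These genes are widely used as signs of proximal tubule differentiation, which cultured tubular cells tend to lose.

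The read totals that the FPKM values of the 8 libraries imply as their scale lay between 17050000 and 18760000. Reads recovered from those values and summed over genes were more in each library, at 17562404 to 19409381. The implied totals may thus not be the numbers of reads sequenced. Values are FPKM, reads scaled to exon length and sequencing depth. That scaling did not make the libraries fully comparable. Median-ratio scaling factors still ran from 0.893 in knockout 3 to 1.085 in knockout 2, and levels also depended on transcript length, as given below. With median-ratio scaling 0 of the 8 genes were called, as in the main fit. Aldh2 was 26.4 ± 3.24 FPKM (SD, n = 4) in controls and 1.24 ± 0.310 FPKM (SD, n = 4) in knockouts, and no knockout library reached the lowest control. All 4 controls and knockouts 3 and 4 carried the Y-linked transcripts Ddx3y, Uty, Kdm5d and Eif2s3y, at summed levels of 5.79 to 34.10 FPKM, and no Xist above 0.01 FPKM. Knockouts 1 and 2 expressed Xist, at 14.53 and 38.31 FPKM, with Y-linked sums of 0.07 and 0 FPKM. Sex and genotype were therefore not balanced. Tests on the 6 male libraries are given where they change a call among the 8 genes. For other named genes that result is mostly not printed, and 44.4% of all genes passed there. Because all 4 controls were male, a fit with sex as a covariate takes its fold change from those same 6 libraries. Transcripts longer than 10000 bp (1076 genes) lay low in 3 knockouts, with median deviations on the log2 scale of -0.16, -0.66 and -0.41 in knockouts 1, 3 and 4. They lay high in knockout 2, at 0.24, and in the controls, at 0.12 to 0.34. Lrp2 (16701 bp of exons) and Mme (11542 bp) belong to this length class. By their reads per FPKM, so do Sorl1, Lrp6, Lrp4, Lnpep, Clcn5, Ankfy1 and Slc4a4, which are named below as lower. For these other genes the fit with the length trend removed is not printed. Of 26 markers listed for the proximal tubule 7 were measured, and the other 19, among them the transporters Slc34a1, Slc5a2 and Slc22a6, were not analysed here. The transcription factor Hnf4a, which maintains proximal tubule identity, was measured at 0.191 to 10.2 FPKM.

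Averaged over both genotypes, the mean levels ran from 47.7 FPKM for Ass1 through 19.0 for Dab2, 14.8 for Ggt1, 7.0 for Mme, 5.76 for Lrp2, 2.34 for Amn and 1.30 for Anpep to 0.315 for Dpp4. The ranges over the 8 libraries overlapped for every pair of neighbours in that order, and the order was not the same in every library: Ass1 lay above Dab2 in 5 of 8, Dab2 above Ggt1 in 4 of 8 and Amn above Anpep in 3 of 8. In the knockouts the mean of Lrp2 (7.31 FPKM) was above that of Mme (4.47 FPKM), and that of Anpep (1.96 FPKM) above that of Amn (0.989 FPKM). Only Anpep and Dpp4 had ranges that lay apart in the knockout libraries, and they overlapped in the controls. None of the 8 genes differed between genotypes at an adjusted p below 0.05 (limma on log2(FPKM + 1), Benjamini-Hochberg over all genes), where 11 of 14145 genes did (0.0778%). Of those 11, 8 were lower (0.0566%) and 3 higher (0.0212%). At an unadjusted p below 0.05 the count was 3 of 8, namely Mme, Dpp4 and Ass1, against 19.2% of all genes. With limma-voom on recovered reads the adjusted count was also 0 of 8, against 0.0495% of genes. Mme and Dpp4 had groups that did not overlap, both lower in the knockout, a pattern shown by 6.86% of all genes. None of the 8 was higher without overlap, as 4.76% of all genes were. All fold changes below are knockout against control on the log2(FPKM + 1) scale, which understates the change of genes near or below 1 FPKM.

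**Figure D1:**
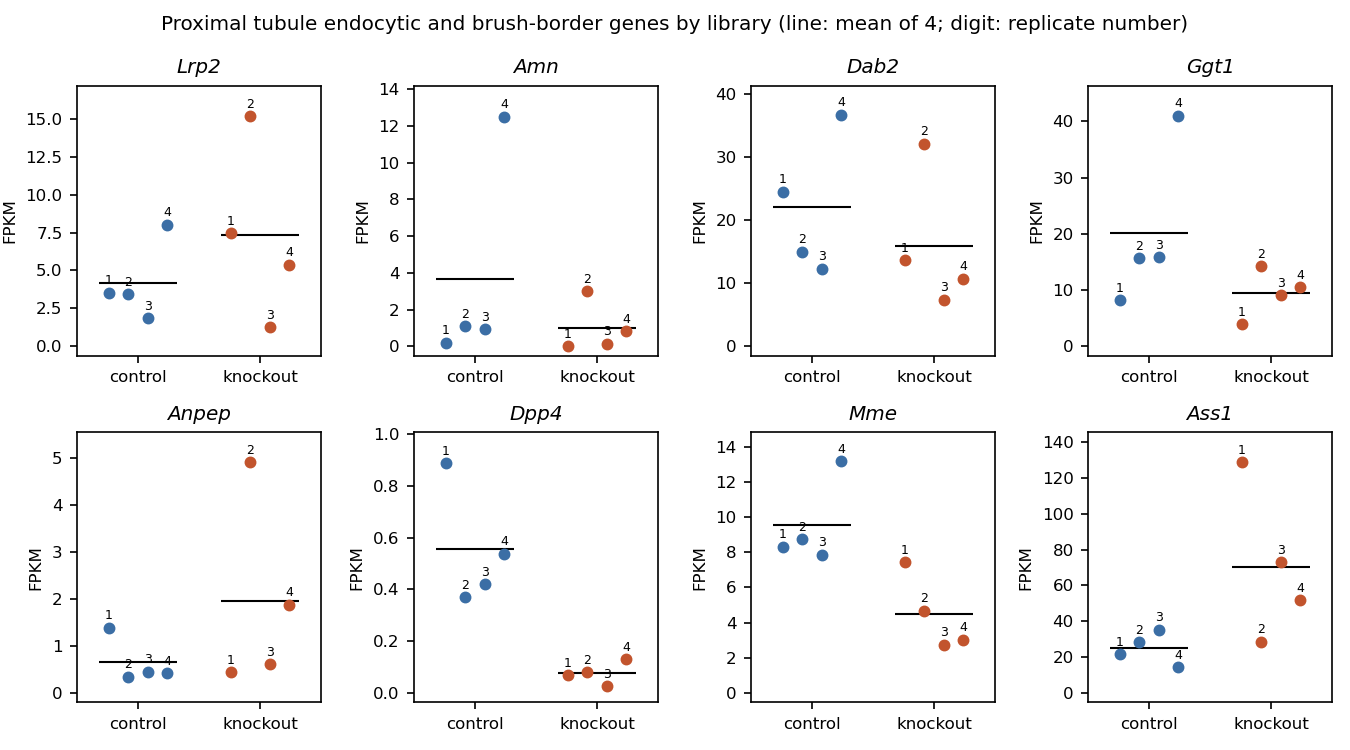
FPKM of the 8 measured genes in each library, with points for single libraries and a line for each group's mean. Dpp4 and Mme are the genes whose control and knockout points do not overlap, and Amn spans from 0 to 12.5 FPKM.

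Lrp2, on chromosome 2 (chr2:69424340-69586065, minus strand, GRCm38), gave 3.53, 3.42, 1.84 and 8.03 FPKM in controls 1 to 4 and 7.45, 15.2, 1.24 and 5.39 FPKM in knockouts 1 to 4. Knockout 2 was the highest and knockout 3 the lowest of all libraries, so the knockout values enclosed the control range. The means were 4.21 ± 2.66 (SD, n = 4) and 7.31 ± 5.83 FPKM (SD, n = 4), a log2 fold change of 0.48 (SE 0.56, 95% interval -0.77 to 1.74, limma adjusted p = 0.633).  Its direction depended on which knockouts entered: on the male libraries alone the log2 fold change was -0.33 (limma adjusted p = 0.653), and without knockouts 3 and 4 it was 1.29 (adjusted p = 0.256). With the trend on transcript length and GC content removed it was 1.01 (SE 0.42, limma adjusted p = 0.227). Knockouts 1 and 2 averaged 11.3 FPKM and knockouts 3 and 4 averaged 3.32 FPKM.

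Amn, on chromosome 12 (chr12:111271095-111276426, plus strand), gave 0.189, 1.11, 0.917 and 12.5 FPKM across the control libraries and 0, 3.00, 0.145 and 0.807 FPKM in the knockouts. Control 4 and knockout 2 stood above the other libraries and the groups overlapped. The values rest on 6, 35, 30 and 400 reads in the controls and 0, 99, 5 and 27 reads in the knockouts. The zero in knockout 1 allows a level of up to 0.0884 FPKM, that of 3 reads, and its exact Poisson 95% interval reaches 0.109 FPKM, both for counting error only. The log2 fold change was -0.74 (SE 0.72, 95% interval -2.36 to 0.87, limma adjusted p = 0.567), and without control 4 it was 0.01. The difference between the group means, 3.68 ± 5.90 and 0.989 ± 1.39 FPKM (SD, n = 4 each), thus came from 1 library.

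Dab2, the endocytic adaptor, lies on chromosome 15 (chr15:6299788-6440712, plus strand). It gave 24.5, 15.0, 12.3 and 36.7 FPKM across the control libraries and 13.6, 32.1, 7.37 and 10.7 FPKM in the knockouts. Control 4 and knockout 2 were again the highest of their groups, and the ranges overlapped. The means of 22.1 ± 11 and 15.9 ± 11.1 FPKM (SD, n = 4 each) gave a log2 fold change of -0.53 (SE 0.45, 95% interval -1.53 to 0.47, limma adjusted p = 0.510). On the male libraries it was -1.10 (adjusted p = 0.0732), and without knockouts 3 and 4 it was 0.05. With the trend on transcript length and GC content removed it was -0.15 (limma adjusted p = 0.828). Dab2 was the most abundant of the 3 measured uptake genes in 8 of 8 libraries.

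Ggt1, which opens the breakdown of extracellular glutathione, lies on chromosome 10 (chr10:75561604-75586200, plus strand). It gave 8.22, 15.7, 15.8 and 41.0 FPKM across the control libraries and 3.88, 14.3, 9.13 and 10.5 FPKM in the knockouts. Knockouts 2, 3 and 4 lay above control 1, so the ranges overlapped, and control 4 stood above the rest. The knockout mean of 9.47 ± 4.32 FPKM (SD, n = 4) was 46.9% of the control mean of 20.2 ± 14.3 FPKM (SD, n = 4), with a log2 fold change of -0.91 (SE 0.47, 95% interval -1.96 to 0.15, limma adjusted p = 0.313). Its direction was lower in each of the 21 other settings tried, with log2 fold changes from -1.24 to -0.51.

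Anpep, the aminopeptidase that removes neutral residues from peptide ends, lies on chromosome 7 (chr7:79821803-79861059, minus strand). It gave 1.39, 0.340, 0.449 and 0.418 FPKM across the control libraries and 0.433, 4.91, 0.606 and 1.88 FPKM in the knockouts. Control 1, knockout 2 and knockout 4 were the high libraries, and the groups overlapped. The log2 fold change was 0.64 (SE 0.42, 95% interval -0.30 to 1.59, limma adjusted p = 0.404). Myeloid cells also carry Anpep, and the same 3 libraries had the highest summed level of 14 measured macrophage and leukocyte markers. That sum was 1034 FPKM in control 1, 1687 in knockout 2 and 1098 in knockout 4, against 90 to 118 in the other controls and 224 to 566 in the other knockouts. In those 3 libraries most of it was Lyz2, at 674, 990 and 554 FPKM. C1qa, C1qb and C1qc were also highest there. Not every marker was: Cd14 was highest in control 4, at 71.6 FPKM, and Ptprc was 0.298 FPKM in knockout 4. The part of these cells in the Anpep values was not tested.

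Dpp4, which removes dipeptides from peptide hormones and chemokines, lies on chromosome 2 (chr2:62330073-62412231, minus strand). It was the least expressed of the 8 genes and the one with the greatest relative difference. The controls gave 0.889, 0.371, 0.419 and 0.538 FPKM and the knockouts 0.0688, 0.0796, 0.0253 and 0.131 FPKM. Every knockout lay below every control. The reads behind these values numbered 97, 40, 47 and 59 in the controls and 8, 9, 3 and 15 in the knockouts, 243 against 35 in all. The highest knockout, 0.131 FPKM, had an exact Poisson 95% interval of 0.0732 to 0.216 FPKM, and the lowest control, 0.371 FPKM, one of 0.265 to 0.506 FPKM, so these counting intervals did not meet. The knockout mean, 0.0761 ± 0.0433 FPKM (SD, n = 4), was 13.7% of the control mean, 0.554 ± 0.234 FPKM (SD, n = 4). In the test over all genes the log2 fold change was -0.52 (SE 0.15, 95% interval -0.86 to -0.18, limma adjusted p = 0.164). The pseudocount of 1 FPKM exceeds every Dpp4 value. The offset in limma-voom on recovered reads is smaller, under 1 read against 3 to 15 reads in the knockouts, and that fit gave -2.91 (SE 0.54, adjusted p = 0.0866). On the male libraries and with sex as a covariate the limma fit stayed at -0.52 and did not pass (adjusted p = 0.0526 and 0.0582). Within the male libraries limma-voom gave -3.07 (adjusted p = 0.0182), where 44.2% of all genes passed. With sex as a covariate limma-voom gave the same fold change (adjusted p = 0.0146), where 34.6% of all genes passed, 22.4% as lower. That equality follows from the design, as all controls were male, and adds no separate support. Both limma-voom fits with sex were chosen after seeing the data. The authors' deposited table lists Dpp4 with a log2 fold change of -2.79 and an adjusted p of 0.00302, and it is the only one of the 8 genes past 0.05 there, where 0.375% of all genes were.

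**Figure D2:**
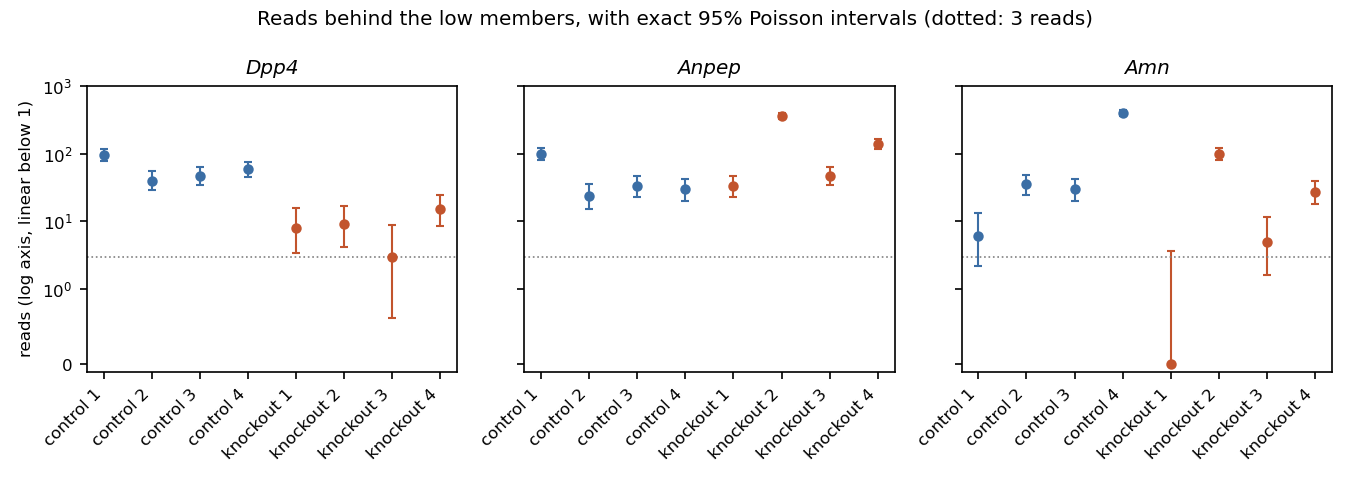
Reads recovered for the 3 genes of lowest level, Amn, Anpep and Dpp4, in each library with exact Poisson 95% intervals on a log axis. Dpp4 rests on 40 to 97 reads in the controls and on 3 to 15 in the knockouts.

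Mme, the neutral endopeptidase that degrades natriuretic peptides and other small peptides, lies on chromosome 3 (chr3:63241537-63386030, plus strand). It gave 8.32, 8.75, 7.86 and 13.2 FPKM across the control libraries and 7.45, 4.68, 2.74 and 3.02 FPKM in the knockouts. The groups did not overlap, although knockout 1 was close to control 3, and knockouts 3 and 4 were the lowest. The knockout mean of 4.47 ± 2.16 FPKM (SD, n = 4) was 46.9% of the control mean of 9.53 ± 2.47 FPKM (SD, n = 4). The log2 fold change was -1.0 (SE 0.28, 95% interval -1.63 to -0.36, limma adjusted p = 0.154). Mme passed the threshold on the male libraries, at a log2 fold change of -1.42 (limma adjusted p = 0.00391), where 44.4% of all genes passed. It also passed with sex as a covariate (limma adjusted p = 0.00528), where 34.2% of all genes did, 21.6% as lower. That fit takes its fold change from the same male libraries, since all controls were male, and is no separate support. The knockouts of the male subset are the 2 in which long transcripts were lowest, so the subset and that shortfall cannot be told apart. With the trend on transcript length and GC content removed from each library, the log2 fold change was -0.37 (limma adjusted p = 0.297). That of Dpp4, whose exons span 6319 bp, was -0.16 (SE 0.25, adjusted p = 0.737). The trend was fitted over all genes on log2(FPKM + 1), a scale that compresses Dpp4. The Dpp4 value therefore cannot show how much of its difference in reads goes with length or GC content.

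Because Dpp4 and Mme were the genes with separate groups, the 250 bases upstream of their RefSeq start sites are shown, from GRCm38.p6 and written 5′ to 3′ on the gene's strand. The Dpp4 window is chr2:62412232-62412481 (minus strand) and the Mme window, at the first of 3 listed starts, is chr3:63294961-63295210 (plus strand). Neither overlaps an annotated exon of the 9 genes, and exons of other genes were not checked.
Dpp4 upstream: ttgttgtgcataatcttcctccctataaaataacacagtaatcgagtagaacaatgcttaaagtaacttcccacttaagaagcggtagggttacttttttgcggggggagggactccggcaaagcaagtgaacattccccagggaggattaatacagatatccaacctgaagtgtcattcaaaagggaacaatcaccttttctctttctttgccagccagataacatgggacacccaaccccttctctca
Mme upstream: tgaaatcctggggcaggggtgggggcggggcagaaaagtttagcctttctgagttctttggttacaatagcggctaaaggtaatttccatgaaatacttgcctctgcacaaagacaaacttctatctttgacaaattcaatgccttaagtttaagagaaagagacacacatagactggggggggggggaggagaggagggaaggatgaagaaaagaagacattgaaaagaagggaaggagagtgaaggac
They hold 43.6% and 45.6% GC, against a median of 52.4% over 32851 windows, whereas the windows at the other 2 Mme starts, which overlap exons, hold 73.2% and 73.6%. The motif GTTAAT, a half-site of HNF1, and the motif CAAAGTCCA of HNF4A were searched on both strands, and neither occurs in these 2 windows. Over 15 windows of the 9 genes, Cubn included, GTTAAT was found in 1 and CAAAGTCCA in 0, against 6.43% and 0.384% of all windows. The match lies 65 bases before the second start of Dab2 and is shown in capitals within 30 bases of context.
Dab2 context: gctttagttcgaGTTAATaaacagttaagt
A match of letters is a description and not a binding site.

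Ass1, on chromosome 2 (chr2:31470207-31520672, plus strand), had the highest mean over the 8 libraries, although Dab2 was above it in 3 of them, and had the largest log2 fold change upward of the 8 genes. It gave 21.4, 28.2, 35.3 and 14.4 FPKM across the control libraries and 129, 28.6, 73.1 and 51.6 FPKM in the knockouts. Knockouts 1, 3 and 4 lay above every control, and knockout 2, at 28.6 FPKM, lay within the control range. The knockout mean of 70.6 ± 43.0 FPKM (SD, n = 4) was 2.84-fold that of the controls, 24.8 ± 8.97 FPKM (SD, n = 4). The log2 fold change was 1.34 (SE 0.43, 95% interval 0.37 to 2.31, limma adjusted p = 0.179). Without knockout 2 it was 1.70 and passed (limma adjusted p = 0.0379), as did 1139 of 14145 genes. On the male libraries it was 1.34 and passed (limma adjusted p = 0.0197), where 44.4% of all genes did. With sex as a covariate it was 1.34 and did not pass (limma adjusted p = 0.0966). Ass1 was lowest in control 4, the library that was highest for Lrp2, Amn, Dab2, Ggt1 and Mme among the controls.

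**Figure D3:**
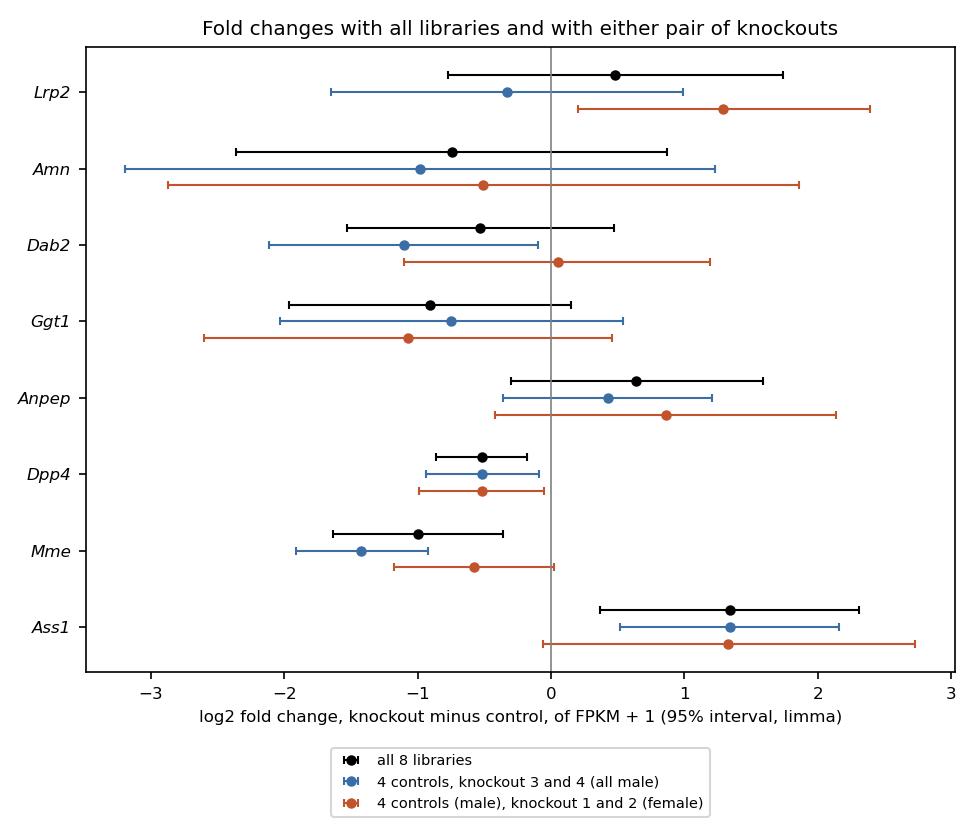
Log2 fold changes of the 8 genes, knockout against control on log2(FPKM + 1), with 95% intervals from the fit on all 8 libraries and on the 6 male libraries. Mme and Dpp4 lie below 0 and Ass1 above 0 in both fits, and the estimate for Lrp2 changes sign.

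The same pair of libraries recurred at the top. Among the controls, control 4 was the highest for 5 of the 8 genes, and among the knockouts, knockout 2 was the highest for 5, with both true for 4 (Lrp2, Amn, Dab2 and Ggt1). Over all genes that double pattern held for 18.3%. It held for 7 of 7 measured proximal tubule markers, whose summed level was 53.7 FPKM in control 4 and 42.1 FPKM in knockout 2 against 16.5 to 21.8 FPKM in the other controls and 7.78 to 16.3 FPKM in the other knockouts. Only 7 of 26 listed markers were measured. Slc27a2 was 2.10 and 1.98 FPKM in those libraries and at most 0.161 FPKM elsewhere. If genes were kept by level, such a marker may be measured only because of them. The 7 of 7 therefore has no fair match in the share of all genes. A smaller share of proximal tubule cells and less RNA of these genes per cell cannot be told apart in bulk libraries. Dpp4, Mme and Ass1 did not share the pattern: in the knockouts Dpp4 was highest in knockout 4, and Mme and Ass1 were highest in knockout 1.

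**Figure D4:**
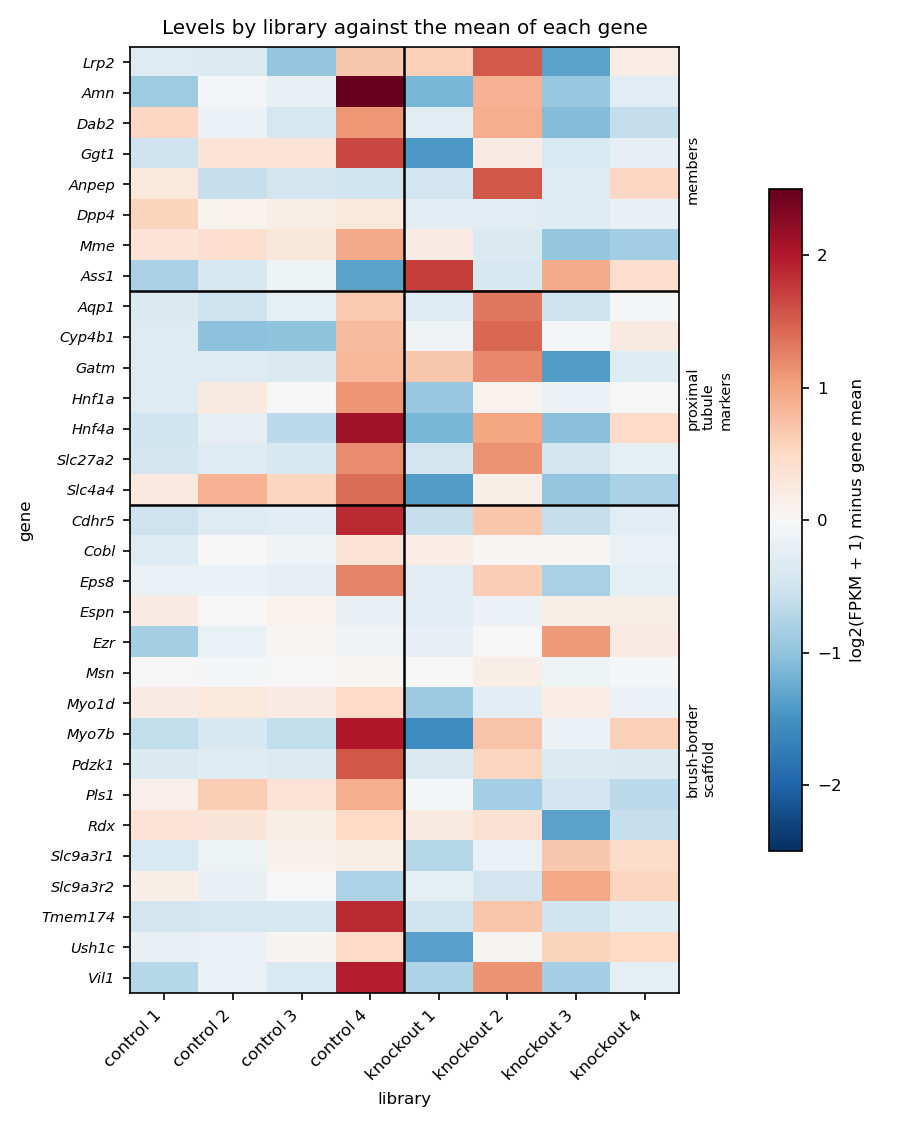
Level of each gene in each library, as the deviation of log2(FPKM + 1) from the gene's mean over the 8 libraries. Lrp2, Amn, Dab2 and Ggt1 peak in control 4 and knockout 2 within their groups, whereas Ass1 is lowest in control 4.

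The spread between libraries of 1 genotype exceeded that of the median gene, in both groups, for 7 of the 8 genes. The median SD of log2(FPKM + 1) over 12070 genes with a mean of at least 1 FPKM was 0.17 among controls and 0.44 among knockouts. Amn had SDs of 1.54 and 0.90, Lrp2 of 0.69 and 1.19, Dab2 of 0.68 and 0.84, and Ggt1 of 0.90 and 0.70. Mme was the steadiest of the genes above 5 FPKM, with 0.31 and 0.54. Dpp4 had the smallest SDs, 0.21 and 0.06, on a scale that its low level compresses, and was the exception among the knockouts.

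None of the markers of other cell types passed the threshold on all 8 libraries, and their levels are given beside these genes. On the male libraries 3 of 4 endothelial, 2 of 9 fibroblast and pericyte, 1 of 3 distal tubule and 1 of 6 podocyte markers were called lower. None of the loop of Henle, collecting duct, macrophage or urothelial markers was called there, where 26.7% of all genes were lower. The 4 measured endothelial markers summed to 5.57 to 7.48 FPKM in controls and 2.06 to 3.58 FPKM in knockouts, without overlap, as for Dpp4 and Mme. Most of that sum is Eng, at 4.54 ± 0.774 and 1.68 ± 0.713 FPKM (SD, n = 4 each). Esam was also lower without overlap, at 0.883 ± 0.201 and 0.192 ± 0.158 FPKM (SD, n = 4 each). Emcn was lower on average, at 0.643 and 0.283 FPKM, with overlap. Egfl7 was higher on average, at 0.505 ± 0.198 and 0.629 ± 0.375 FPKM (SD, n = 4 each). Pecam1, Cdh5 and Kdr, which define endothelium, were not analysed here. The 9 measured fibroblast and pericyte markers summed to 482 FPKM in control 1, the library highest in Dpp4, and to 49.0 to 84.5 FPKM in the other controls and 39.0 to 58.2 FPKM in the knockouts. Pdgfrb, a pericyte receptor, was 3.62 to 17.3 FPKM in controls and 0.654 to 2.62 FPKM in knockouts. Without control 1 the log2 fold change of Dpp4 was -0.42. Loop of Henle markers (4 of 9 measured) summed to 6.41 to 29.7 FPKM in controls and 2.20 to 7.94 FPKM in knockouts, and collecting duct markers (5 of 14) to 29.0 to 36.2 and 6.25 to 29.3 FPKM. The part of these cell types in the differences of Dpp4, Mme and Ass1 was not tested.

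**Figure D5:**
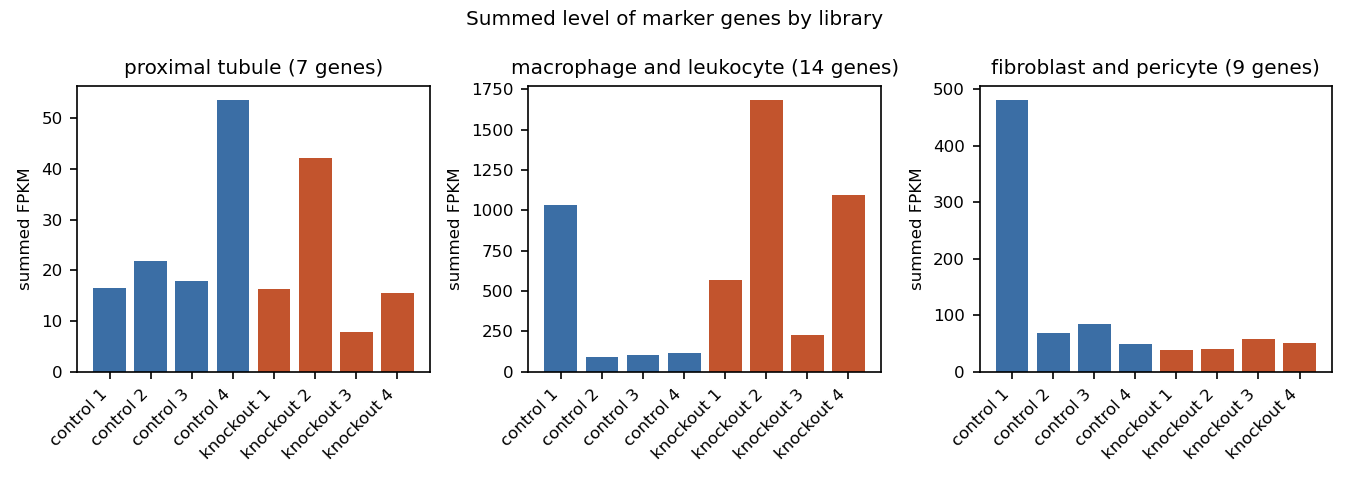
Summed FPKM of measured marker genes per cell type in each library. Proximal tubule markers are highest in control 4 and knockout 2, and macrophage markers in control 1, knockout 2 and knockout 4.

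The machinery around the receptors was measured for 29 of 30 listed genes, of which 16 were higher and 13 lower in the knockout with a median log2 fold change of 0.05, against -0.06 over all genes. None passed the adjusted threshold, and 9 of 29 had an unadjusted p below 0.05 against 19.2% of all genes, 6 of them higher and 3 lower. Lrpap1, the chaperone that keeps newly made megalin from binding ligands too early, was 18.7, 16.2, 15.0 and 12.5 FPKM across the control libraries and 41.4, 28.4, 24 and 29.7 FPKM in the knockouts. Its groups did not overlap, and its log2 fold change of 0.93 (SE 0.20, limma adjusted p = 0.108) stood beside the overlapping values of its client Lrp2. The clathrin light chain Cltb had a log2 fold change of 0.81 (limma adjusted p = 0.142), the sorting nexin Snx17 of 0.61 (adjusted p = 0.164) and the adaptor subunit Ap2m1 of 0.62 (adjusted p = 0.179), each without overlap. Those lower were Clcn5, an endosomal chloride exchanger, Ankfy1, an endosomal Rab5 effector, and Ocrl, an endosomal lipid phosphatase. Ocrl was 6.15 to 6.79 FPKM in controls and 3.65 to 5.82 FPKM in knockouts, without overlap (limma adjusted p = 0.240). These 3 were named after their values were seen. On the male libraries 14 of the 29 were called higher and 11 lower, against 17.6% and 26.7% of all genes.

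Of the LDL receptor family, the relatives of megalin, 11 of 12 listed genes were measured, 3 higher and 8 lower with a median of -0.18 and 0 called. Sorl1 was 7.24 ± 1.59 and 4.06 ± 1.66 FPKM, and Lrp6, a Wnt co-receptor, 12.9 ± 2.03 and 7.09 ± 3.78 FPKM (SD, n = 4 each, control before knockout). Lrp4 was below its control range in each knockout, at 0.315 to 0.608 against 0.638 to 0.999 FPKM (limma adjusted p = 0.315). Sorl1, Lrp6 and Lrp4 belong to the long transcripts, which lay low in most knockouts. The part of length in their differences was not tested.

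The scaffold of the brush border, the actin bundlers, motors and linkers of the microvillus, was measured for 16 of 19 listed genes. Of these, 5 were higher and 11 lower, with a median of -0.23 and 0 called. Pls1, an actin bundler of microvilli, was 7.91 ± 2.12 FPKM in controls and 3.42 ± 1.12 FPKM in knockouts (SD, n = 4 each) without overlap, a log2 fold change of -1.01 (limma adjusted p = 0.123). Ezr, which ties the membrane to actin, was 123 ± 29.1 and 185 ± 81.3 FPKM (SD, n = 4 each; adjusted p = 0.353). Control 4 and knockout 2 were the highest of their groups for 8 of these 16 genes, among them Pdzk1, at 2.81 and 0.880 FPKM there and at most 0.0495 FPKM elsewhere.

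Other peptidases and hydrolases of the brush border and its surroundings were measured for 20 of 31 listed genes, with 8 higher, 12 lower, a median of -0.16 and 1 called. The called gene was Pepd, the cytosolic dipeptidase that frees proline, which rose from 21.4 ± 5.48 to 61.0 ± 9.15 FPKM (SD, n = 4 each, log2 fold change 1.48, limma adjusted p = 0.0416). That call was lost with limma-voom on recovered reads, with a pseudocount of 0.1, after removing the trend on length and GC content, and with the replicate block. It was also lost without knockouts 3 and 4 together, and on leaving out any 1 of controls 1, 2 and 3 and knockouts 1, 3 and 4. Cndp2, a cytosolic dipeptidase, was 64.3 ± 10.2 and 131 ± 27.5 FPKM (SD, n = 4 each; adjusted p = 0.0996) without overlap. Lnpep, a membrane aminopeptidase, was 19.7 ± 4.07 and 6.57 ± 5.67 FPKM with overlap (SD, n = 4 each; adjusted p = 0.124), lower on average as Dpp4 and Mme were.

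Around Ass1, 12 of 17 listed genes of arginine metabolism were measured, 8 higher and 4 lower with a median of 0.42 and 0 called. Asl, which completes arginine synthesis after Ass1, was 8.40, 9.31, 9.80 and 10.2 FPKM across the control libraries and 13.2, 12.2, 17.7 and 20.1 FPKM in the knockouts. Its groups did not overlap, and its log2 fold change was 0.67 (SE 0.19, limma adjusted p = 0.154). Odc1, the entry to polyamine synthesis, was 56.2 ± 2.60 and 101 ± 26.8 FPKM (SD, n = 4 each; adjusted p = 0.138), also without overlap. Arg1, which breaks arginine down, was 12.4 FPKM in control 1 and 0.474 to 2.03 FPKM in the other 7 libraries. On the male libraries 4 of the 12 were called higher and 0 lower, against 17.6% and 26.7% of all genes.

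Around Ggt1, 12 of 16 listed genes of glutathione breakdown and uptake were measured, 9 higher and 3 lower with a median of 0.24 and 0 called. Gss, glutathione synthetase, was 8.57 ± 3.75 and 13.3 ± 3.84 FPKM (SD, n = 4 each; limma adjusted p = 0.270). Ggt6, a relative of Ggt1, was 0.611 ± 0.261 and 0.279 ± 0.166 FPKM (SD, n = 4 each; adjusted p = 0.325), and its ranges overlapped as those of Ggt1 did. On the male libraries 2 of the 12 were called higher and 0 lower. There the LDL receptor family had 1 higher and 4 lower of 11, and the brush-border scaffold 2 and 2 of 16. The other peptidases and hydrolases had 4 and 5 of 20. Over all genes the shares were 17.6% and 26.7%.

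The genes with the most similar profiles were found by the root-mean-square difference of standardised log2(FPKM + 1) over the 8 libraries among genes of at least 1 FPKM. For Lrp2 they were Tfec (0.16), Bbs9 (0.21) and Ildr2 (0.25), for Amn Phyhipl (0.15), Tmem27 (0.19) and Ptger3 (0.20), and for Dab2 Mylip (0.15), Gm4524 (0.21) and Napepld (0.23). Ggt1 was nearest to Anxa4 (0.17), C2cd2 (0.18) and Slc1a5 (0.18), and Anpep to Mknk1 (0.13), Rab3il1 (0.18) and Evi5l (0.22). Dpp4 had no profile nearer than Pde4b (0.29), Dkk2 (0.32) and Gucy1b1 (0.33). Mme was nearest to Nkrf (0.22), Bag4 (0.23) and Selenoi (0.24), and Ass1 to BC031181 (0.13), Rexo2 (0.14) and Atxn10 (0.15). Within the 8 genes Amn and Ggt1 were the closest pair, at 0.44.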

How the data were processed

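Expression was measured by RNA-seq in 8 libraries, grouped as control or knockout by their titles, since the genotype field runs from ALDH2 to ALDH5 over the knockouts. The genes and lists were chosen with earlier results of these data known. Reads were aligned to GRCm38 with STAR 2.4.1d, and FastQC and DESeq2 are also named, per the submitters' processing notes; the counting method is not stated there. The deposited values are FPKM, and the authors' deposited table also gives log2 fold changes, p-values and adjusted p-values. Its values are called raw counts by name, but they scale inversely with gene length. The tests were limma 3.58.1 (R 4.3.3) on log2(FPKM + 1) with a variance trend and genotype as the only term, over 14145 genes, adjusted by Benjamini-Hochberg at 0.05. Reads were recovered by multiplying FPKM by GENCODE M21 exon lengths (14129 genes matched); 95.0% to 95.5% of values from 1 to 200 reads came out whole within 0.05 reads, against 9.5% to 10.8% with a wrong length step. limma-voom on these reads called 7 genes. The counting intervals cover 95% and are exact Poisson intervals for counting error only. Replicate numbers were not used as pairs. Named genes were the 9 listed, and from each list up to 4 of lowest p plus those at or above 3 times, or at or below a 3rd of, the control mean; only some of these are printed. The control libraries differed among themselves, and the knockouts likewise, beyond sampling noise (chi-square of 12 to 337 per gene). Promoter windows came from RefSeq, GRCm38.p6. Alternatives covered the pseudocount (0.1 and 0.5), a filter of 1 FPKM in 4 libraries, scaling, the variance trend, the replicate block, sex, transcript length and GC content, recovered reads and left-out libraries. The combinations of limma-voom with sex were chosen after seeing the data.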

Additional observations from a re-analysis of the deposited data

Results flagged for a closer look

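Within the control group, 1 library stood apart from the other 3 for 3 of the 8 genes, by a gap beyond Dixon's 95% limit for 4 values. For Amn the gap below control 4 (12.5 FPKM) was 0.925 of the range, and the next control was at 1.11 FPKM. For Mme control 4 (13.2 FPKM) stood apart by 0.833 of the range. For Anpep it was control 1 (1.39 FPKM), by 0.896 of the range.

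The summed proximal tubule markers stood apart in the same library as Amn and Mme, control 4, by 0.858 of the range. The summed macrophage and leukocyte markers and the summed fibroblast and pericyte markers stood apart in the same library as Anpep, control 1, by 0.970 and 0.918 of the range. In all, 36 groups of 4 libraries were examined and 6 stood out, where chance gives about 1 in 20 groups. Their causes were not tested.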

How the results depend on the processing

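Ggt1, Anpep, Dpp4, Mme and Ass1 kept their direction in all alternatives run. Genes called numbered 11, and 3 with a pseudocount of 0.1, 1 after removing the length and GC trend, 7 with limma-voom, 4838 with sex as a covariate, 6275 on male libraries, 4885 and 6243 with limma-voom and those 2 sex settings, and 1 to 1139 leaving out a replicate (1139 without knockout 2). With the replicate block 1 gene was called and no member changed its call; libraries numbered 3 deviated together (correlation 0.56) and those numbered 1, 2 and 4 did not (0.04, -0.20 and -0.06), so the numbers were not taken as pairs. Of the listed genes 1 was called, and 0 with the block, a pseudocount of 0.1, limma-voom, removal of the length and GC trend, or without knockouts 3 and 4; 48 with the sex covariate, 56 on male libraries, 46 and 57 with limma-voom in those 2, and 0 to 16 leaving out a replicate. Members called numbered 0, and 1 with the sex covariate, 2 on male libraries, 2 and 3 with limma-voom in those 2, and 0 to 1 leaving out a replicate. Mme gave -1.42 in both sex settings and -1.70 with limma-voom in both; Dpp4 gave -3.07 with limma-voom in both; Ass1 gave 1.34 on male libraries, 1.38 with limma-voom there, and 0.98 to 1.70 leaving out a replicate. Lrp2 reversed to -0.33 in both sex settings and to -0.50 with limma-voom in both, Dab2 to 0.05 without knockouts 3 and 4, and Amn to 0.01 without control 4 (-1.16 to 0.01 leaving out a replicate). The causes were not tested. The filter on low values removed Amn, Anpep and Dpp4, and DESeq2 and edgeR were not run on FPKM. Amn and Dpp4 rest on under 10 reads in 3 libraries each, which limits their precision.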

Other observations

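Slc4a4, the basolateral bicarbonate cotransporter of the proximal tubule, was 7.90 to 19.0 FPKM in controls and 1.88 to 7.36 FPKM in knockouts, without overlap (log2 fold change -1.52, SE 0.35, limma adjusted p = 0.121). Within each group it was highest in control 4 and knockout 2, as Lrp2, Amn, Dab2 and Ggt1 were. Tmem27, a brush-border partner of amino acid transporters, was 26.5 FPKM in control 4 and 3.40 FPKM in knockout 2, and at most 0.494 FPKM in the other 6 libraries.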
